A study of Mus musculus with 6 samples.

Results

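The collagen genes of the mouse were described here in inguinal white adipose tissue, the subcutaneous fat pad of the groin. Members were the protein-coding genes whose symbol is Col, a number, the letter a and a number. This gave 44 genes of the 54532 in the deposited table, of which 34 had enough reads to be tested among 15591 tested genes. The fat was taken from aged mice after 7 days of cold exposure, and 3 libraries from mice given vehicle were set against 3 libraries from mice given estrogen. Both groups shared the age, the cold and the tissue, so no library shows the fat of unexposed or young mice. The strain, the sex, the ovarian status, the estrogen dose and the age in weeks are not stated here because no label gives them. No label ties each library to an animal of its own either. The p-values therefore weigh only the spread among these 6 samples, and some of that spread may be technical.

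Collagens are secreted matrix proteins in which several chains wind into a long helix, and chains of one type often assemble with partners encoded by other genes. Fibrillar collagens form the tensile fibres of connective tissue, type IV collagen forms the sheet of the basement membrane, and FACIT collagens (fibril-associated collagens with interrupted helices) sit on the surface of fibrils. In fat, fibroblasts and adipocyte progenitors are the main source of fibrillar collagen. Adipocytes and endothelial cells both lie on basement membranes and also make type IV collagen.

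Total counts were 16046601 to 20736771 per library. With vehicle, collagen genes took 2.33, 5.02 and 2.13% of all counts (replicates 1 to 3 in this order, here and in what follows). With estrogen they took 0.919, 1.32 and 0.246%. The groups did not overlap, vehicle replicate 2 was the highest and estrogen replicate 3 the lowest. The 95% Wilson intervals of these shares were at most 0.0196 percentage points wide, which covers counting error only. Vehicle replicate 2 had the highest level in 23 of the 34 tested collagens, and estrogen replicate 3 the lowest level in 23. Both held in 19 genes. Estrogen replicate 1 also stood apart in skeletal muscle markers (4 genes, summed to 6036 CPM, counts scaled to the library total), which reached 1.32 to 55.7 CPM in the other libraries.

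With estrogen, fibrillar, FACIT and type VI collagens lay at lower levels, while the main basement membrane chains, Col4a1 and Col4a2, lay close to their vehicle levels. Among the 34 tested collagens, 31 had a negative log2 fold change (estrogen over vehicle), against 49.7% of all tested genes. The median was -1.34, or 2.54-fold lower, against 0.0025 over all tested genes. By the quasi-likelihood test of edgeR, with p adjusted by Benjamini-Hochberg across the tested genes, 0 collagens passed the threshold of 0.05 in either direction, as 0% of all genes did. The smallest adjusted p among them was 0.207. At an unadjusted p under 0.05, 17 of the 34 were lower and 0 higher, against 10.9% and 9.49% of all tested genes. Every estrogen library lay under every vehicle library in 18 collagens, against 14.7% of all genes, and above in 0, against 12.8%. DESeq2 called 7 collagens lower, and 0 higher, against 3.34% and 2.75% of genes with an adjusted p. They were Col5a1, Col5a2, Col6a1, Col6a2, Col8a1, Col8a2 and Col12a1. Without vehicle replicate 2 the number lower at an unadjusted p under 0.05 was 4, and DESeq2 called 1. Without estrogen replicate 1 these numbers were 11 and 4, and DESeq2 called 3 without vehicle replicate 1 and 3 without vehicle replicate 3. With both vehicle replicate 2 and estrogen replicate 3 left out, the median over the tested collagens was -0.65 and 26 were negative.

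**Figure D1:**
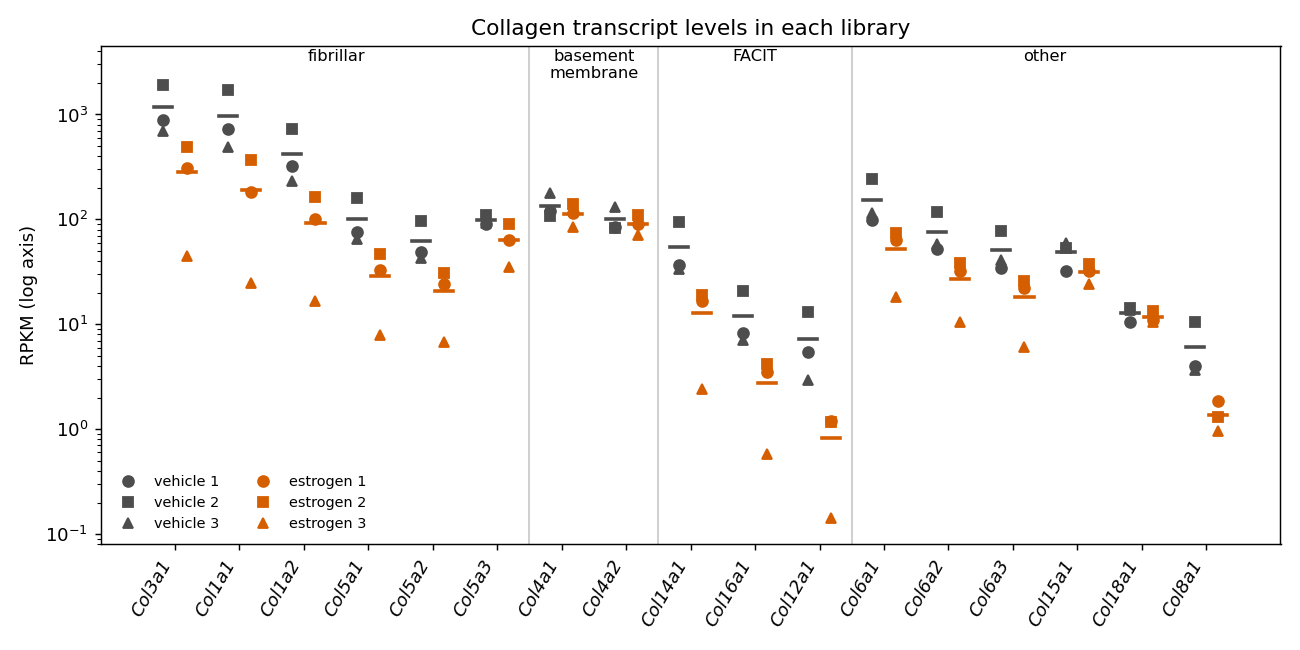
Level of 17 collagen genes in each library, in RPKM (read count scaled to library total and gene length, log axis), with vehicle libraries in grey, estrogen libraries in orange and group means as bars. Col3a1, Col1a1 and Col1a2 stand lower in each estrogen library than in any vehicle library, with estrogen replicate 3 lowest, while Col4a1, Col4a2 and Col18a1 overlap between the groups.

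Abundance was split unevenly among the members. Averaged over the 6 libraries, 14 of the 44 genes were above 10 RPKM, the read count scaled to library total and gene length, which allows genes to be compared. Col3a1 (725 RPKM), Col1a1 (584 RPKM) and Col1a2 (259 RPKM) were the most abundant, followed by Col4a1 (124 RPKM), Col6a1 (103 RPKM) and Col4a2 (95.3 RPKM). These first 3 genes were also among the 20 genes with the highest mean CPM of the whole table. Among the 19 tested collagens with a mean of at least 10 CPM, all 19 had a negative log2 fold change, with a median of -1.59. Of these, 13 were lower at an unadjusted p under 0.05, against 10.9% of all tested genes. The 15 tested collagens under that mean had a median of -0.88, with 12 negative and 4 at an unadjusted p under 0.05. The mean was taken over both groups, so a gene can reach it through its vehicle libraries alone. Col4a5 did so, with a mean of 17.2 CPM with vehicle and 5.66 CPM with estrogen. The split is therefore not independent of the difference.

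The fibrillar class had 11 members and 10 tested. Their median log2 fold change was -1.56, with 9 negative. Of the 10, 5 were lower at an unadjusted p under 0.05, against 10.9% of all tested genes, and 0 passed the adjusted threshold. Col3a1, the chain of type III collagen that co-assembles with type I in elastic tissues (ENSMUSG00000026043, mm10 chromosome 1, 45311538 to 45349706), was at 882, 1926 and 700 RPKM with vehicle. With estrogen it was at 307, 488 and 45.2 RPKM. The groups did not overlap, and the log2 fold change was -2.06 ± 0.81 (SE), or 4.17-fold lower (edgeR adjusted p = 0.224). Col1a1, which encodes the chain present more than once in each type I molecule, was at 720, 1728 and 485 RPKM with vehicle and at 182, 365 and 24.7 RPKM with estrogen. Its log2 fold change was -2.36 ± 0.91 (edgeR adjusted p = 0.222). Its partner Col1a2 was at 319, 720 and 234 RPKM against 101, 162 and 16.6 RPKM, a log2 fold change of -2.19 ± 0.80 (edgeR adjusted p = 0.212). In all 3 genes estrogen replicate 2 was the highest of its group and estrogen replicate 3 lay far under the other 2. Without estrogen replicate 2, Col3a1, Col1a1 and Col1a2 were at -2.73, -3.24 and -2.86, and without vehicle replicate 2, Col1a1 and Col1a2 were at -1.66 and -1.57.

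Type V collagen nucleates type I fibrils and sets their diameter. Col5a1 was at 76.5, 162 and 64.5 RPKM with vehicle and 32.7, 46.5 and 7.83 RPKM with estrogen, and its log2 fold change was -1.80 ± 0.64 (edgeR adjusted p = 0.212). Col5a2 was at 48.8, 95.6 and 42.8 RPKM against 24.0, 31.0 and 6.79 RPKM, with -1.60 ± 0.56 (edgeR adjusted p = 0.209). DESeq2 gave an adjusted p of 0.0380 for Col5a1 and 0.0414 for Col5a2, and their adjusted p ran up to 0.571 for each over the alternatives tried. The groups did not overlap in either gene. The third type V chain, Col5a3, was at 91.4, 110 and 93.4 RPKM against 62.9, 91.2 and 35.1 RPKM, a log2 fold change of -0.64 ± 0.32 (edgeR adjusted p = 0.295). Its highest estrogen library lay just under its lowest vehicle library. The remaining fibrillar members were low: Col27a1, a developmental cartilage collagen, had a log2 fold change of -0.34 ± 0.47, Col24a1 one of -1.53 ± 0.88 and Col11a1 one of -0.90 ± 0.84. Single libraries set the last 2 values, since Col24a1 was at -0.20 without vehicle replicate 2 and Col11a1 at 0.15 without vehicle replicate 3. Col11a2, a cartilage chain, was the 1 tested fibrillar gene with a positive value (0.25 ± 0.28), at 36, 33 and 47 counts with vehicle and 38, 40 and 29 with estrogen. Col2a1, the main cartilage collagen, had 8 counts in all libraries together and was not tested.

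**Figure D2:**
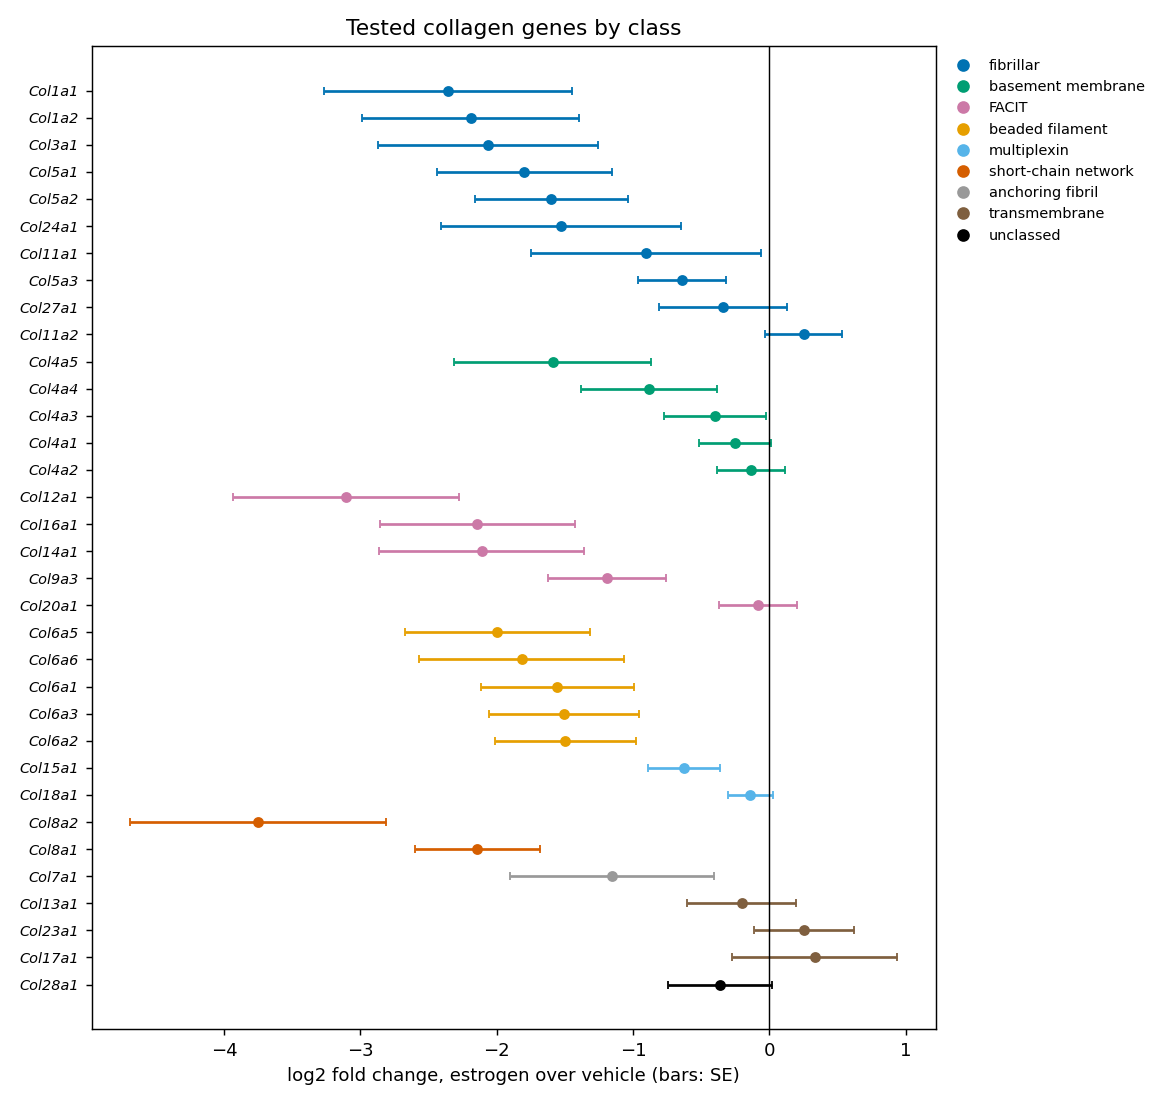
Log2 fold change of estrogen over vehicle for the 34 tested collagens, coloured by class, with bars of 1 SE from the edgeR fit. Values run from -3.75 for Col8a2 to 0.33 for Col17a1, and the 2 abundant basement membrane chains, Col4a1 and Col4a2, lie near 0.

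The basement membrane class had 6 members and 5 tested. Their median log2 fold change was -0.40, with 5 of 5 negative and 0 at an unadjusted p under 0.05. Col4a1 (ENSMUSG00000031502, mm10 chromosome 8, 11198423 to 11312826) was at 119, 109 and 178 RPKM with vehicle and 115, 141 and 84.9 RPKM with estrogen. The groups overlapped, and the log2 fold change was -0.25 ± 0.26 (edgeR adjusted p = 0.597). Col4a2, which joins Col4a1 in the ubiquitous type IV molecule, was at 84.2, 83.5 and 132 RPKM against 89.8, 111 and 71.5 RPKM, with -0.14 ± 0.25 (edgeR adjusted p = 0.774). These values are smaller than the spread between replicates and leave room for a difference of either sign. Col4a5, a chain of the tissue-restricted type IV networks encoded on the X chromosome, was at 1.38, 4.19 and 2.10 RPKM against 1.23, 1.16 and 0.135 RPKM. Its groups did not overlap, with a log2 fold change of -1.59 ± 0.72 (edgeR adjusted p = 0.263). Col4a4 had -0.88 ± 0.50 and Col4a3, its partner in the kidney filter, -0.40 ± 0.37. Col4a6 had 48 counts in all and was not tested.

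The promoters of Col3a1 and Col1a2 and of Col4a1 and Col4a2 are shown because the fibrillar pair had log2 fold changes of -2.06 and -2.19 and the basement membrane pair of -0.25 and -0.14. They are the most abundant chains of each class with a window in the table used, in which Col1a1 was not found. RefSeq windows of 300 bases, from 250 before to 50 after the annotated start (build GRCm38.p6, the mm10 assembly), were found for 35 of the 44 members. Capitals mark the CCAAT box, the TATAAA element or the GC box GGGCGG, each read as written or as its reverse complement, and each sequence reads 5′ to 3′ on the strand of its gene. Col3a1 lies at chr1:45311288-45311587 (plus strand), Col1a2 at chr6:4505368-4505667 (plus), Col4a1 at chr8:11312777-11313076 (minus) and Col4a2 at chr8:11312555-11312854 (plus).
Col3a1: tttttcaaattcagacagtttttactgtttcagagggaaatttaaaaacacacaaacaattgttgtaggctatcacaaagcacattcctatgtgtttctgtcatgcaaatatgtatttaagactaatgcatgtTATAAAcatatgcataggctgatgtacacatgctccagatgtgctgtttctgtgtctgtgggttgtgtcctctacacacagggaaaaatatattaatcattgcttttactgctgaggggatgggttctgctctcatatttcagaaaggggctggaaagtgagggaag
Col1a2: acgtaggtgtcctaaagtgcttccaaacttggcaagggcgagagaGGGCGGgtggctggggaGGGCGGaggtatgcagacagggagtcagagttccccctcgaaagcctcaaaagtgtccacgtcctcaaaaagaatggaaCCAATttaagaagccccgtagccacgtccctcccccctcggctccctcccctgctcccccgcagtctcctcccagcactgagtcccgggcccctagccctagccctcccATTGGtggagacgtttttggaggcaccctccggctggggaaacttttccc
Col4a1: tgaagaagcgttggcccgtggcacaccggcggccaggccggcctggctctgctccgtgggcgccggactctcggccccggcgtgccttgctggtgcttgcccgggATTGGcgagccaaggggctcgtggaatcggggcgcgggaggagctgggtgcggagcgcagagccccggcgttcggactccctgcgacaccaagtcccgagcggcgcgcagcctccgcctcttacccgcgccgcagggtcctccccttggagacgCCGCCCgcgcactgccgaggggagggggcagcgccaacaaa
Col4a2: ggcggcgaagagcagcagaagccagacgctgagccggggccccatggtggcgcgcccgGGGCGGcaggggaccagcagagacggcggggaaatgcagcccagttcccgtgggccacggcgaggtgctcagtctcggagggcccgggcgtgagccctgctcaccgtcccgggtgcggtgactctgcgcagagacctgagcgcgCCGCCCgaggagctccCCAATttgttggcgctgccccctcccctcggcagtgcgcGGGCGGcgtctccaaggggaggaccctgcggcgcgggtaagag

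Col4a1 and Col4a2 are read in opposite directions from RefSeq starts 21 bases apart, and their windows share 78 bases. In the deposited table the genes overlap by 22 bases, and whether the counting used strand is not stated by the labels. Both windows are rich in G and C (74.0 and 73.7%), with 37 and 33 CpG sites. The Col3a1 window has 37.7% G and C, 0 CpG sites and 1 TATAAA, at -117 from the annotated start. The Col1a2 window has 61.0%, 13 CpG sites, 2 CCAAT (at -109 and at 1, the start itself) and 2 GGGCGG. The deposited Col1a2 gene starts at 4504814, upstream of this window, so these positions are relative to another start than that of the counted gene. All 32851 such windows of the mouse had a median of 52.7%, the 8 fibrillar windows one of 61.4% and the 5 basement membrane windows one of 63.3%. CCAAT was found in 13 of 38 collagen windows, against 37.4% of all windows, TATAAA in 5, against 13.6%, and GGGCGG in 23, against 35.7%. These 38 windows belong to 35 genes, so some genes count more than once. The GGGCGG of the Col4a1 window lies in the bases shared with Col4a2 and counts for both. The estrogen response element, read as AGGTCA and TGACCT with 3 bases of any kind between them, was found in 0 of the 38, against 0.0213% of all windows. A match is a description of these letters and no match says nothing of the factor.

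The FACIT class had 9 members and 5 tested. All 5 values were negative and their median was -2.11, which was -1.47 without vehicle replicate 2 and -0.66 without the filter on low counts, where more members enter. Of the 5, 4 were lower at an unadjusted p under 0.05, against 10.9% of all tested genes, and 0 passed the adjusted threshold. Col14a1, which binds fibrils in mature connective tissue, was at 36.6, 94.3 and 33.6 RPKM with vehicle and 16.7, 18.9 and 2.44 RPKM with estrogen, a log2 fold change of -2.11 ± 0.75 (edgeR adjusted p = 0.212). Col12a1, its relative in loaded tissues such as tendon (ENSMUSG00000032332, mm10 chromosome 9, 79598991 to 79718831), was at 5.47, 13.1 and 2.96 RPKM against 1.19, 1.16 and 0.142 RPKM. Its log2 fold change was -3.11 ± 0.83, or 8.61-fold lower (edgeR adjusted p = 0.207). DESeq2 gave Col12a1 an adjusted p of 0.0380, within 0.0380 to 0.571 over the alternatives. Col16a1 was at 8.18, 21 and 7.15 RPKM against 3.48, 4.14 and 0.578 RPKM (-2.14 ± 0.71; edgeR adjusted p = 0.207). None of these 3 genes overlapped between the groups. Without vehicle replicate 2, Col14a1 was at -1.47, Col12a1 at -2.34 and Col16a1 at -1.48. Col9a3, a cartilage chain counted 6 to 31 times per library, had -1.19 ± 0.43 and passed the filter on low counts only through its vehicle libraries, so its place among the 4 is not independent of its difference. Col20a1 overlapped, at 0.425, 0.640 and 0.548 RPKM against 0.433, 0.497 and 0.596 RPKM (-0.08 ± 0.29). Col22a1, Col19a1 and Col9a2 had 24, 6 and 2 counts in all, and Col9a1 had 0 in every library. The limit that a count of 0 allows, 3 counts, equals 0.130 to 0.209 CPM at these depths.

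The other collagens had 18 members and 14 tested, with a median of -1.33 and 12 negative. Of the 14, 8 were lower at an unadjusted p under 0.05, against 10.9% of all tested genes, and 0 passed the adjusted threshold. The beaded filament collagens of type VI form a network around cells and are abundant in fat. All 5 tested members were lower at an unadjusted p under 0.05, against 10.9% of all tested genes. These 5 also lay lower without overlap, against 14.7% of all tested genes, with values from -1.99 to -1.50. Col6a1, the chain common to type VI molecules (ENSMUSG00000001119, mm10 chromosome 10, 76708792 to 76726168), was at 98.9, 245 and 115 RPKM with vehicle and 63.0, 74.9 and 18.3 RPKM with estrogen. Its log2 fold change was -1.56 ± 0.56 (edgeR adjusted p = 0.212). Col6a2, its partner, was at 51.9, 118 and 58.6 RPKM against 32.4, 38.0 and 10.6 RPKM (-1.50 ± 0.51; edgeR adjusted p = 0.208). Col6a3, whose tail is the source of the peptide endotrophin, was at 34.4, 78.1 and 41.4 RPKM against 22.3, 25.7 and 6.07 RPKM (-1.51 ± 0.55; edgeR adjusted p = 0.212). The alternative chains Col6a5 (-1.99 ± 0.68) and Col6a6 (-1.82 ± 0.75) were low in level, at 0.343 and 0.893 RPKM on average, and lay at -1.17 and -1.23 without vehicle replicate 2. Each had 8 counts in estrogen replicate 3 and needed vehicle libraries to pass the filter on low counts. The place of Col6a5 and Col6a6 among the 5 is therefore not independent of their difference. Col6a4 had 45 counts in all, 27 of them in estrogen replicate 1, and was not tested. DESeq2 gave adjusted p of 0.0458 for Col6a1 and 0.0412 for Col6a2, and over the alternatives both ran up to 0.571.

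Type VIII collagen forms a short-chain network made by vascular and activated stromal cells, and its genes had the smallest p among the collagens. Col8a1 (ENSMUSG00000068196, mm10 chromosome 16, 57624258 to 57754737) was at 4.03, 10.5 and 3.66 RPKM with vehicle and 1.85, 1.30 and 0.951 RPKM with estrogen. The groups did not overlap and the log2 fold change was -2.14 ± 0.46, or 4.41-fold lower (edgeR adjusted p = 0.207). DESeq2 gave an adjusted p of 0.0012, and it ran up to 0.571 over the alternatives. Col8a2 had 27, 238 and 65 counts with vehicle and 13, 3 and 4 with estrogen, a log2 fold change of -3.75 ± 0.94 (edgeR adjusted p = 0.207; DESeq2 adjusted p = 0.0026, range to 0.571). A gene this low passes the filter on low counts through its vehicle libraries, so its place among the tested genes is not independent of its difference. Without vehicle replicate 2, Col8a2 was at -2.40 and Col8a1 at -1.49. Col10a1, the collagen of hypertrophic cartilage, had 39 counts in all and was not tested.

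The multiplexins lie in and beside basement membranes. Col15a1 was at 32.3, 53.4 and 59.5 RPKM with vehicle and 32.0, 37.6 and 24.4 RPKM with estrogen, a log2 fold change of -0.63 ± 0.26 (edgeR adjusted p = 0.243), with overlapping groups. Col18a1, the source of the fragment endostatin, was at 10.4, 14.2 and 13.8 RPKM against 11.1, 13.3 and 10.5 RPKM (-0.14 ± 0.17; edgeR adjusted p = 0.646). Col18a1 lies over the opposite strand of Slc19a1, so its count may hold reads of that gene. Col7a1, the anchoring fibril of epithelia, had 82, 370 and 52 counts against 98, 50 and 41, and its log2 fold change of -1.16 ± 0.75 was 0.22 without vehicle replicate 2. Of the transmembrane collagens, Col23a1 (0.26 ± 0.37) and Col17a1 (0.33 ± 0.61) had positive values and Col13a1 a negative one (-0.20 ± 0.40), each with overlapping groups. Both positive values turned negative without vehicle replicate 1, at -0.0021 and -0.04, as did Col17a1 without estrogen replicate 1 (-0.10). Col28a1 had -0.36 ± 0.38, and Col25a1 and Col26a1, with 5 and 18 counts in all, were not tested.

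The make-up of the collagen transcripts was compared within libraries, where no scaling enters. The fibrillar class took 84.6, 87.6 and 76.1% of collagen counts with vehicle and 69.9, 76.2 and 42.3% with estrogen, overlapping by a small margin. The basement membrane class took 6.48, 2.91 and 11.6% against 16, 13.0 and 39.4%, with no overlap. Shares of a library sum to 100%, so a higher share need not be a higher level. The summed level of this class overlapped between the groups, at a mean of 1697 CPM with vehicle and 1460 CPM with estrogen. FACIT collagens took 1.77, 2.09 and 1.74% against 1.77, 1.31 and 0.952%, and the other collagens 7.11, 7.43 and 10.6% against 12.4, 9.48 and 17.4%. Wilson 95% intervals of these shares were at most 0.962 percentage points wide. In estrogen replicate 3, Col4a1 at 84.9 RPKM was above Col3a1 at 45.2 RPKM, while in each other library Col3a1 was the higher of the pair.

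**Figure D3:**
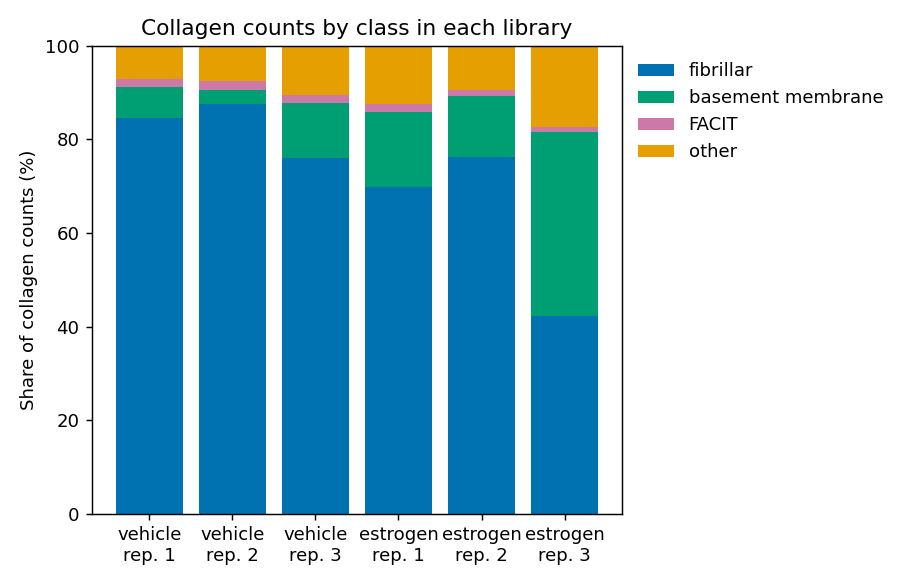
Share of all collagen counts (percent) taken by the fibrillar, basement membrane, FACIT and other collagens in each library. The basement membrane share is higher in each estrogen library (13.0 to 39.4%) than in any vehicle library (2.91 to 11.6%), while the summed level of this class overlaps between the groups.

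The contrast of fibrillar and basement membrane chains was tested on the ratio of Col1a1 to Col4a1, each in counts per kilobase. It was 6.04, 15.9 and 2.72 with vehicle and 1.58, 2.60 and 0.291 with estrogen, with no overlap. The difference in log2 ratio was -2.59, and the exact two-sided permutation p was 0.10, the smallest that 3 against 3 allows (0.20 adjusted over 6 ratios). The gap between the groups was narrow, from 2.60 in estrogen replicate 2 to 2.72 in vehicle replicate 3. The other 5 ratios differed by smaller amounts. Col4a1 to Col4a2 was 1.41, 1.30 and 1.35 against 1.28, 1.27 and 1.19, a difference of -0.12 in log2 (exact permutation p = 0.10, 0.20 adjusted). Col6a1 to Col6a2 was 1.91, 2.08 and 1.96 against 1.94, 1.97 and 1.73 (-0.08; exact permutation p = 0.50, 0.50 adjusted). Col1a1 to Col1a2 was 2.25, 2.40 and 2.07 against 1.81, 2.25 and 1.48 (-0.30; exact permutation p = 0.20, 0.24 adjusted). Col5a1 to Col5a2 was 1.57, 1.69 and 1.51 against 1.36, 1.5 and 1.15 (-0.25; exact permutation p = 0.10, 0.20 adjusted), with no overlap. Col3a1 to Col6a3 was 25.6, 24.6 and 16.9 against 13.7, 19.0 and 7.44 (-0.82; exact permutation p = 0.20, 0.24 adjusted). Each of the 6 ratios was on average lower with estrogen, but the sign follows from which gene was made the numerator. Col1a1 and Col4a1 recur among the ratios, so the 6 are not independent. Of the 6, 0 reached an exact permutation p under 0.05, which this design cannot reach.

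Summed fibroblast and macrophage markers were lower beside the collagens, while summed adipocyte markers were higher. All 7 fibroblast and progenitor markers (Pdgfra, Dcn, Lum, Ly6a, Cd34, Dpp4 and Pi16) had negative log2 fold changes, with a median of -1.26. Of the 7, 6 were lower at an unadjusted p under 0.05, against 10.9% of all tested genes. By edgeR, 0 passed the adjusted threshold, with adjusted p of 0.207 to 0.262. The summed level of the 7 markers was 1676 to 3881 CPM with vehicle and 666 to 1457 CPM with estrogen. Fewer cells of a type and less RNA per cell cannot be told apart in bulk tissue. The summed collagen level divided by this marker sum was 13.5, 12.4 and 9.08 with vehicle and 6.30, 10.7 and 4.24 with estrogen. The groups overlapped on this scale through estrogen replicate 2 and vehicle replicate 3, with means of 11.7 and 7.09. For the fibrillar class the means were 9.73 and 4.79, also overlapping. Dcn alone gave 1089 CPM of the marker sum of 2555 CPM in the vehicle mean, so the divisor is no count of cells. For the basement membrane class the same ratio was 0.873, 0.361 and 1.06 against 1.01, 1.39 and 1.67, also overlapping. Divided by the endothelial marker sum instead, the basement membrane class was at 3.55, 2.997 and 3.87 against 2.90, 3.02 and 1.63, overlapping with the lower mean in the estrogen group. The 5 macrophage markers were at 1777 to 2574 CPM against 400.5 to 1373 CPM, with 5 of 5 negative. Of these, 4 were lower at an unadjusted p under 0.05, against 10.9% of all tested genes. The 5 adipocyte markers were at 11442 to 15303 CPM against 16311 to 25138 CPM, with 0 of 5 negative. None of them was higher at an unadjusted p under 0.05, against 9.49% of all tested genes. Fabp4 alone gave 8103 CPM of the adipocyte sum of 13890 CPM in the vehicle mean. Plin1, Lipe and Cidec overlapped between the groups, while Adipoq and Fabp4 lay higher without overlap. Endothelial markers, 1 of 5 negative, were at 413 to 575 CPM against 507 to 680 CPM, and smooth muscle or pericyte markers, 4 of 5 negative, at 286 to 471 CPM against 317 to 323 CPM. Their part in the collagen values was not tested.

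**Figure D4:**
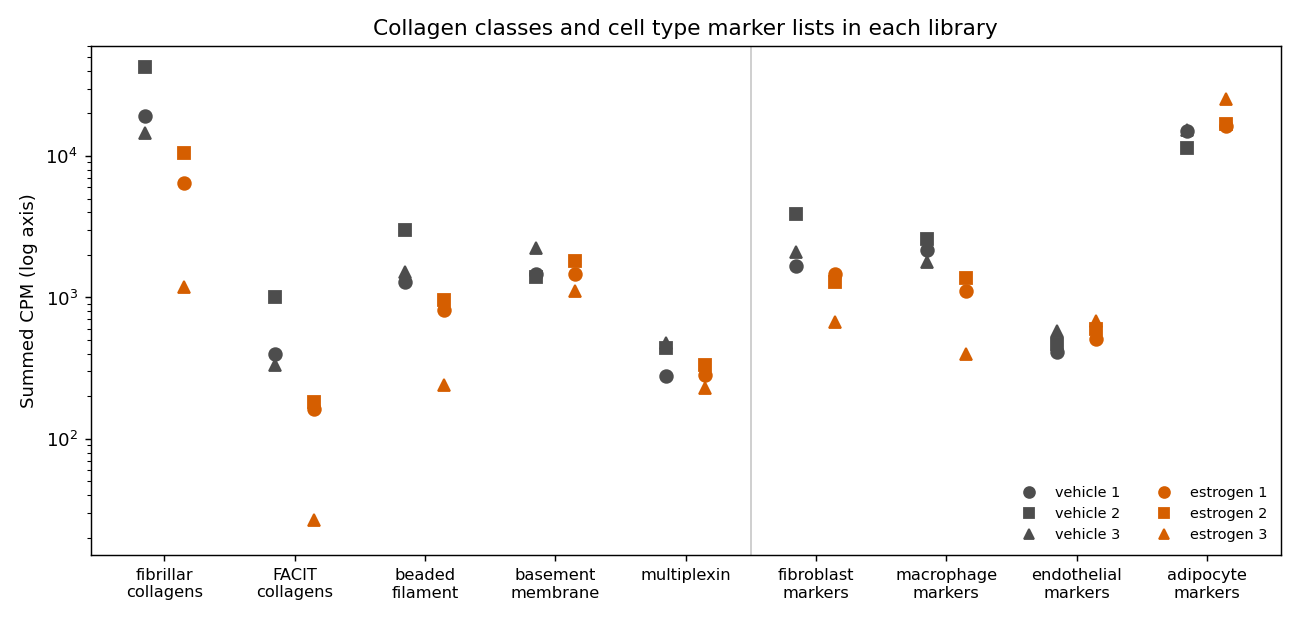
Summed CPM (log axis) of 5 collagen classes and 4 cell type marker lists in each library, vehicle in grey and estrogen in orange. Fibrillar collagens, FACIT collagens, type VI (beaded filament) collagens, fibroblast markers and macrophage markers are lower in each estrogen library than in any vehicle library, while adipocyte markers are higher in each.

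Other cells were checked the same way. The 5 epithelial markers summed to at most 0.467 CPM in any library, with Krt14 and Krt5 at 0 counts in all. Mesothelial markers summed to at most 1.62 CPM, cartilage markers to at most 11.9 CPM, and Schwann cell markers lay at 23.1 to 33.9 CPM against 21.4 to 33.2 CPM. Neutrophil markers were at 152 CPM in vehicle replicate 1 and 23.3 to 34.8 CPM in the others. Lymphocyte markers were at 107 and 52.5 CPM in estrogen replicates 1 and 3 and at 1.52 to 2.49 CPM elsewhere. Without estrogen replicate 1, the library highest in muscle and lymphocyte markers, the median of the tested collagens was -1.55. Estrogen replicate 3, also high in lymphocyte markers, stayed in that fit.

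The genes that modify, fold, cut, cross-link and degrade collagen were counted from lists chosen with earlier results of these data known. The counts are therefore not independent of these data. Of 49 tested genes, 46 had negative values (median -1.13), 35 were lower at an unadjusted p under 0.05, against 10.9% of all tested genes, and 0 passed the adjusted threshold. DESeq2 called 24 lower, against 3.34%, and without vehicle replicate 2 the 35 became 20. Among the 35, P4ha3 and Mmp13 had 8 and 5 counts in estrogen replicate 3. Both needed vehicle libraries to pass the filter on low counts, so their place is not independent of their difference. For the enzymes that hydroxylate and glycosylate chains, 12 of 15 were lower at that unadjusted p (median -0.72), among them P4hb, a subunit of prolyl hydroxylase, at -0.70 ± 0.17, and P4ha3 at -2.74 ± 0.67. Folding and export had 5 of 7, with the prolyl isomerase Fkbp14 at -1.16 ± 0.27 and the coat protein Sec24d at -1.04 ± 0.26. Propeptide cleavage had 4 of 7, with the proteinases Adamts2 at -1.29 ± 0.33 and Bmp1 at -1.65 ± 0.47. Cross-linking had 4 of 5, with the lysyl oxidases Lox at -1.72 ± 0.47 and Loxl1 at -1.27 ± 0.39. Breakdown and uptake had 7 of 8, with the proteinases Mmp9 at -0.85 ± 0.25 and Mmp14 at -1.39 ± 0.42. Collagen receptors had 3 of 7, with Ddr2 at -0.996 ± 0.35 and Itga11 at -1.72 ± 0.62, while Itga1 lay at 0.0004 ± 0.12. Among these lists, 0 of the tested genes were higher at an unadjusted p under 0.05, against 9.49% of all genes.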

How the data were processed

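Total RNA of 6 libraries was sequenced. The table the authors deposited holds raw counts for each gene, with HISAT2, featureCounts and mm10 named in the submitters' processing notes. Tool versions, strand setting and handling of multiply mapped reads: not given in the sources used. Groups and replicate numbers came from the sample titles. All 44 members matched GENCODE M21 by identifier, symbol and coordinates.

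The filterByExpr rule left 15591 genes, and library sizes were adjusted by TMM (trimmed mean of M values). The 2 groups were fitted with edgeR 4.0.16 in R 4.3.3 (quasi-likelihood test), and p was adjusted by Benjamini-Hochberg across those genes. Standard errors come from the F statistic. The test was tested on simulated data. CPM and RPKM were computed here from the counts, TMM-scaled totals and deposited gene lengths. DESeq2 1.42.0, limma 3.58.1 (voom), other scalings, no filter, the replicate number as a block and each library left out in turn were alternatives. Leaving out vehicle replicate 2 with estrogen replicate 3, and DESeq2 without each library, were added after seeing the data.

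The members, classes and lists were chosen with earlier results of these data known. Named were, per class, the 4 most abundant members, the 2 of smallest p and any with a positive value, and per pathway list the 2 of smallest p. Some further members, such as Col9a3, Col24a1 and Itga1, were named after their values were seen. Replicates of a group differed by more than counting noise in each pair (chi-square per degree of freedom 41.7 to 88.6).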

Additional observations from a re-analysis of the deposited data

How the results depend on the processing

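Under the scaling, filter and tool alternatives run, the median of the tested collagens stayed negative (-1.49 to -0.92), as it did without each library in turn (-1.63 to -1.04). With library totals alone the median of all tested genes moved to -0.17, and that of the collagens to -1.49. Without the low-count filter, the FACIT median was -0.66 and that of the other collagens -0.85, with more members tested. Leaving out 1 library gave FACIT medians of -2.52 to -1.47, medians of the other collagens of -1.63 to -0.79, fibrillar medians of -1.89 to -1.20, 4 to 15 collagens lower at an unadjusted p under 0.05 and 20 to 35 pathway genes. DESeq2 called 7 collagens (adjusted p, 0 by edgeR) and 1 to 9 without each library. With vehicle replicate 2 and estrogen replicate 3 both left out, medians were -0.65 over all tested collagens, -0.79 for fibrillar, -1.01 for FACIT and -0.65 for the other collagens. The cause was not tested.

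Signs turned in genes near 0 or of low count when libraries were left out, singly or as the pair just named. The log2 fold change ran from -0.0021 to 0.53 for Col23a1 (negative without vehicle replicate 1), -0.099 to 0.69 for Col17a1 (negative without vehicle replicate 1, at -0.036, or estrogen replicate 1), -0.23 to 0.060 for Col20a1 (positive without vehicle replicate 2, or without estrogen replicate 1 at 0.0090) and -1.61 to 0.15 for Col11a1 (positive without vehicle replicate 3). It ran from -0.31 to 0.11 for Col4a2 (positive without vehicle replicate 3, or without estrogen replicate 3 at 0.0094), -1.61 to 0.38 for Col7a1 (positive without the pair, or without vehicle replicate 2 at 0.22), -0.89 to 0.28 for Col27a1 (positive without the pair, or without estrogen replicate 3 at 0.012) and -0.46 to 0.085 for Col13a1 (positive without the pair, or without estrogen replicate 3 at 0.058). Without the pair alone, Col24a1 (-1.96 to 0.23) and Col18a1 (-0.27 to 0.0032) turned positive.

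The replicate numbers shared by the titles were not taken to pair the libraries, since no label says that they do. The columns of the deposited table carry other numbers, which differ between the groups for replicate 2. Libraries of the same title number deviated from their group means with correlations of -0.13, 0.22 and 0.32. With 3 libraries per group these correlations cannot decide whether the libraries are paired. Those of replicates 2 and 3 correlated best with their own number, those of replicate 1 did not. A fit with a replicate block gave 19 collagens lower at an unadjusted p under 0.05, 0 past the adjusted threshold and a median of -1.24.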
